A study of Homo sapiens with 6 samples.

Results

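The Notch genes examined here were 3 receptors (NOTCH1, NOTCH2 and NOTCH3), 2 ligands (JAG1 and JAG2), 2 nuclear mediators (RBPJ and MAML2) and 3 target genes of the HES/HEY family (HES1, HES4 and HEY1). They were chosen by name with earlier results of these data known, so the share called among them is not an unbiased estimate. All 10 were found among the 16907 gene symbols of the count tables. RNA had been sequenced from LX-2 cells, an immortal line of human hepatic stellate cells, which become collagen-producing myofibroblasts in injured liver. Small interfering RNA was given to both groups at 20 nM for 72 h, in 3 libraries each that form 3 pairs by replicate number. The siControl group received a negative control siRNA from one supplier. The siOGT group received a pool of siRNAs against OGT, which modifies nuclear and cytosolic proteins with O-linked N-acetylglucosamine, from another supplier. The data therefore hold a single targeting reagent in a single cell line, and the loss of OGT cannot be told apart from other effects of that pool or of its supplier's chemistry.

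Notch receptors are single-pass membrane proteins that are activated by ligands on a neighbouring cell. Ligand binding lets ADAM proteases and then gamma-secretase cut the receptor, and the released intracellular domain moves to the nucleus, binds the DNA-binding protein RBPJ and recruits Mastermind-like coactivators such as MAML2. Genes of the HES and HEY families, which encode basic helix-loop-helix repressors, are the classical targets. In liver, JAG1 is known for its role in bile duct formation, and Notch signalling has been linked to stellate cell activation.

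The targeted gene was checked first. OGT was at 145 ± 28.9 CPM (counts scaled to library size with TMM factors, SD, n = 3) in siControl and at 32.0 ± 6.94 CPM (SD, n = 3) in siOGT, and it was lower in 3 of 3 pairs. Libraries held between 25996770 and 27966801 expected counts. All 8 stellate and myofibroblast markers examined were present, with a summed level of 7848 to 9456 CPM in siControl and 7513 to 9362 CPM in siOGT. By the edgeR test at the threshold of 0.05 given below, by which 25.4% of all genes were called, 2 of these markers were called higher (TAGLN and SPARC) and 4 lower (PDGFRB, COL1A1, COL1A2 and COL3A1) in siOGT. The sum was carried by VIM, COL1A1 and SPARC, at means of 3200, 2658 and 1466 CPM in siControl. ACTA2, a myofibroblast marker, was the lowest of the 8, at 6.55 CPM in siControl and 7.58 CPM in siOGT. The hepatocyte markers ALB, APOA1 and HNF4A summed to at most 0.296 CPM in any library, and the cholangiocyte markers KRT19 and EPCAM were below 1 CPM on average, whereas KRT7 and SOX9, also on that list, were at 7.17 and 105 CPM in siControl. The 4 endothelial markers summed to 2.66 to 4.36 CPM in siControl and 2.54 to 4.38 CPM in siOGT. The 4 leukocyte markers summed to 132 to 163 CPM and 177 to 208 CPM. This list was carried by CD68, a lysosomal protein also made by other cells, which was called higher, while PTPRC, the pan-leukocyte antigen, was at 0.536 CPM in siControl and 0.520 CPM in siOGT.

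Sequences before the transcription start are shown for RBPJ and for those HES/HEY genes that were called and held the RBPJ core motif, because RBPJ itself rose and the HES/HEY genes moved in opposite directions. The called pathway genes LFNG and DTX2 also held the motif in a window, 248 and 59 bases before a start, and are not shown. The motif searched was TGGGAA on both strands, and its longer form GTGGGAA, which contains it. Windows were the 250 bases before each RefSeq start on GRCh38.p14, of which 20.8% of all 35116 windows held TGGGAA and 5.43% held GTGGGAA. Sequences read 5′ to 3′ on the strand of the gene, and capitals mark TGGGAA or its reverse complement. The HES1 window was chr3:194135898-194136147 (plus strand) and held 2 motifs, which began 84 and 70 bases before the start. For HES4 (chr1:1000156-1000185, minus strand) the motif began 76 bases before the RefSeq start. GENCODE 44 annotates 75 bases of the HES4 window as exon of HES4 up to position 1000172, so that most of the motif lies inside that exon. HEYL, a further HES/HEY gene described below, had its motifs 178 and 99 bases before the start (chr1:39639804-39639833 and chr1:39639725-39639754, minus strand), and RBPJ had motifs 115 and 72 bases before a start (chr4:26319619-26319648 and chr4:26319662-26319691, plus strand), which is in 1 of its 5 windows.
HES1: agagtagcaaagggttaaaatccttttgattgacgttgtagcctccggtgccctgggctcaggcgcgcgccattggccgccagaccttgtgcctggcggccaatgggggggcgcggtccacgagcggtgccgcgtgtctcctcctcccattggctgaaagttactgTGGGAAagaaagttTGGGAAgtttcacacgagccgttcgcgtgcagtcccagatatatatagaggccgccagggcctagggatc
HES4: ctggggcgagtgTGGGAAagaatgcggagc
HEYL, distal motif: ccgcctagggccTTCCCAcggctcggcggc
HEYL, proximal motif: aggaaagggcccTGGGAAagggcggtggcg
RBPJ, distal motif: ggtttaggaaatTTCCCAcggccgtgttgt
RBPJ, proximal motif: agtggaaggcggTGGGAAggaggtgtagcg
The HES1, HES4, HEYL and RBPJ windows each held at least 1 copy of the longer form. Of the 10 genes, 9 had a window and 3 of these (HES1, HES4 and RBPJ) held TGGGAA. These matches describe letters in the windows, and binding of RBPJ was not measured.

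The Notch genes were then compared between siOGT and siControl, with changes given as log2FC, the log2 fold change of siOGT over siControl. Of the 10 genes 6 passed the test, 4 higher (JAG1, JAG2, RBPJ and HES1) and 2 lower (NOTCH3 and HES4) in siOGT, at an edgeR adjusted p-value of at most 0.05 with the replicate number as a block. Over all 14853 genes tested 25.4% were called, 12.7% higher and 12.7% lower. The median absolute log2FC was 0.48 over 9 genes without HEY1, which has at most 3 counts per library, and 0.19 over all genes tested. The median signed log2FC was -0.0025 without HEY1, 0.17 with it and 0.01 over all genes. Replicates were separate experiments per the study's methods, and in these bulk libraries fewer cells that express a gene and less RNA per cell cannot be told apart. Leaving aside HEY1, which met the filter on low counts through its siOGT counts, the groups did not overlap in 3 of 9 genes (JAG1, RBPJ and HES4), against 23.9% of all genes, and the sign was the same in all 3 pairs in 6 of 9, against 54.0%. The calls depended on the pairing. Without the replicate block edgeR called 1 of the 10 genes, RBPJ, which rose, against 0.875% of all genes (0.478% higher, 0.397% lower). DESeq2 called 4 with the block (NOTCH3, RBPJ, HES1 and HES4), against 16.3% of all genes (7.52% higher, 8.74% lower), and 2 without it (RBPJ and HES4), against 5.72% (2.61% higher, 3.10% lower). All 6 calls were kept with median-ratio size factors, library totals alone, no filter on low counts or filterByExpr, under which 24.9%, 25.1%, 24.2% and 27.3% of all genes were called. Leaving out replicate 1 left NOTCH3, RBPJ, HES1 and HES4 called, against 12.5% of all genes (5.94% higher, 6.54% lower). Without replicate 2 JAG2 was lost and 5 calls were kept, against 22.5%, and without replicate 3 all 6 were kept, against 23.8%.

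**Figure D1:**
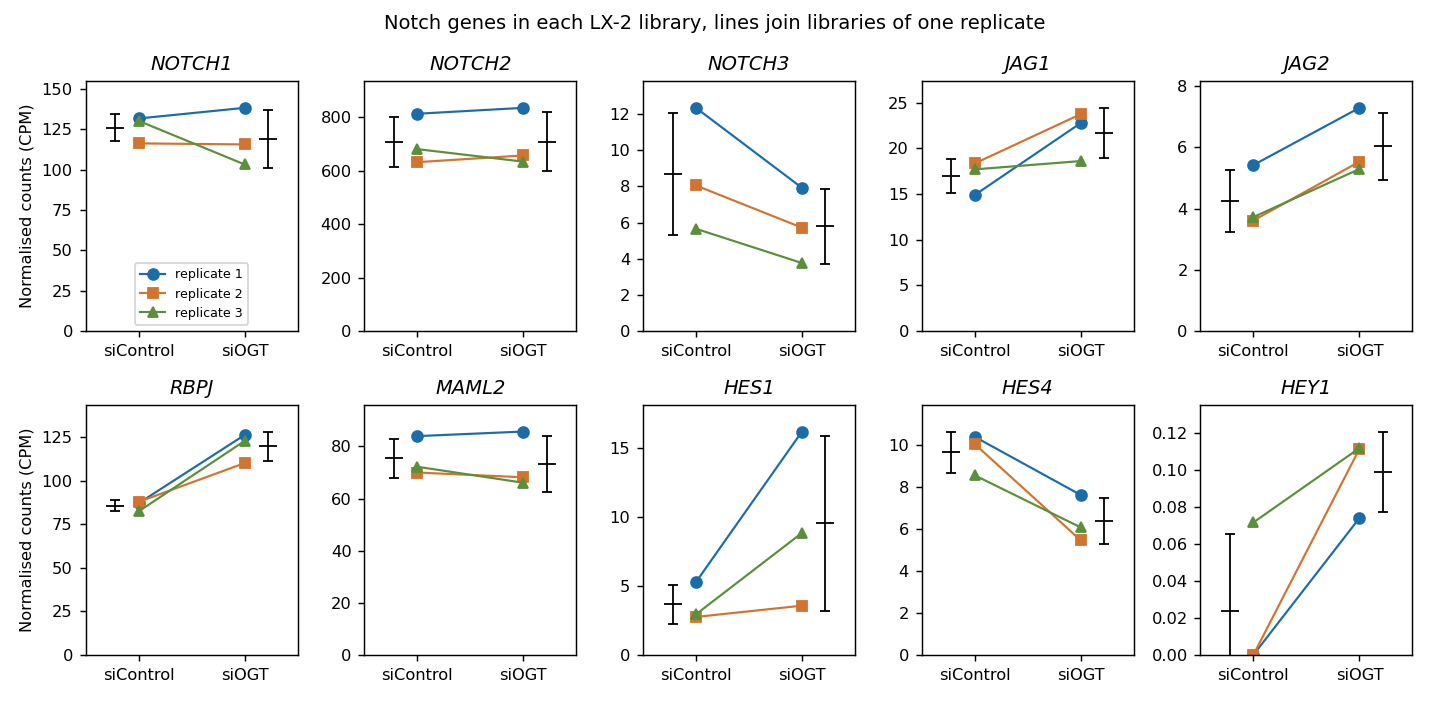
Level of each of the 10 Notch genes (CPM, vertical axes from 0, scaled per gene) in the siControl and siOGT libraries. Lines join libraries of one replicate and black bars are the mean and SD of 3 libraries (the lower end for HEY1 in siControl is cut at 0). RBPJ, JAG1 and HES4 do not overlap between groups, HEY1 rests on at most 3 counts per library, and HES1 in siOGT ranges from 3.57 to 16.2 CPM.

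Among receptors, NOTCH2 was the most abundant. NOTCH2 (chromosome 1, 119911550 to 120100780, minus strand, hg38) was at 813, 632 and 681 CPM in the siControl libraries 1 to 3 and at 835, 657 and 634 CPM in the siOGT libraries 1 to 3. The groups overlapped throughout. Its log2FC was -0.003 (95% confidence interval -0.14 to 0.14, edgeR adjusted p-value 0.985). NOTCH2 shares long near-identical stretches with the human-specific NOTCH2NL genes, so that its counts depend on how reads were divided. NOTCH2 held 94.0% of the expected counts of NOTCH2 and the 4 NOTCH2NL genes listed (NOTCH2NLA, NOTCH2NLB, NOTCH2NLC and NOTCH2NLR), and their sum gave a log2FC of -0.01.

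NOTCH1 (chromosome 9, 136494430 to 136546050, minus strand) was at 132, 116 and 130 CPM in siControl and 138, 116 and 103 CPM in siOGT. Replicate 3 was lower in siOGT while replicates 1 and 2 differed little, by log2 ratios of 0.07, -0.01 and -0.34 in pairs 1 to 3. The log2FC was -0.09 (95% confidence interval -0.25 to 0.07, edgeR adjusted p-value 0.421), a range that holds decreases of up to about 0.25 on the log2 scale.

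NOTCH3, the receptor best known from vascular smooth muscle and pericytes, was the receptor that changed. NOTCH3 (chromosome 19, 15159038 to 15200995, minus strand) was at 12.3, 8.05 and 5.66 CPM in siControl and at 7.92, 5.72 and 3.77 CPM in siOGT, from 101 to 330 counts per library. It fell in each of the 3 pairs, by 0.64, 0.49 and 0.58 on the log2 scale, although the groups overlapped because replicate 1 was highest in both. This gave a log2FC of -0.58 (SE 0.12, 95% confidence interval -0.84 to -0.32, edgeR adjusted p-value 0.00251) and the level fell by 32.9%. The call held with DESeq2 (0.0245) and was lost without the block (edgeR adjusted p-value 0.368). NOTCH4, which was listed with the other pathway genes, was not called on its 6 to 42 counts per library (log2FC -0.84, edgeR adjusted p-value 0.125). Scaled per kilobase of exon, NOTCH2 made up 79.1% ± 0.942 of the summed level of the 4 receptors in siControl and 80.6% ± 0.785 in siOGT (SD, n = 3 each), NOTCH1 18.9% and 18.1% on average, and NOTCH3 1.70% ± 0.508 and 1.15% ± 0.261. The receptor that changed was therefore a small share of the receptor RNA in both groups.

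Both Jagged ligands rose. JAG1 (chromosome 20, 10637684 to 10673999, minus strand) was at 14.9, 18.3 and 17.7 CPM in siControl and at 22.8, 23.7 and 18.6 CPM in siOGT. All 3 siOGT libraries lay above all 3 siControl libraries, as was so for 12.1% of all genes tested, but in replicate 3 the difference was small, with log2 ratios of 0.61, 0.37 and 0.07 in pairs 1 to 3. JAG1 had a log2FC of 0.35 (SE 0.099, 95% confidence interval 0.14 to 0.56, edgeR adjusted p-value 0.0143). The call was lost with DESeq2 (0.0690), without the block (edgeR adjusted p-value 0.215) and without replicate 1 (0.232, log2FC 0.22).

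JAG2 (chromosome 14, 105140980 to 105168820, minus strand), the other Jagged ligand, was at 5.42, 3.61 and 3.73 CPM in siControl and 7.29, 5.54 and 5.30 CPM in siOGT, from 92 to 197 counts per library. It rose in 3 of 3 pairs by similar log2 ratios of 0.42, 0.61 and 0.50, and the groups touched only because siControl 1 stood above siOGT 3. This gave a log2FC of 0.51 (SE 0.14, 95% confidence interval 0.21 to 0.82, edgeR adjusted p-value 0.0147). This call was lost with DESeq2 (0.106), without the block (edgeR adjusted p-value 0.270), without replicate 1 (0.0699) and without replicate 2 (0.0587), in each case with a log2FC of at least 0.46. An unnamed gene on the same strand shares 7.33% of the exonic bases of JAG2. The Delta ligands were scarce. DLL4 had 18 to 72 counts per library and a log2FC of 0.76 that was not called (edgeR adjusted p-value 0.0580), and DLL1 and DLL3 were not called either. Per kilobase, JAG1 made up 55.8% ± 5.93 of the summed level of JAG1, JAG2, DLL1, DLL3 and DLL4 in siControl and 53.7% ± 4.24 in siOGT (SD, n = 3 each), a difference smaller than the spread between libraries.

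RBPJ rose and was called in every fit run. RBPJ (chromosome 4, 26163455 to 26435131, plus strand) was at 86.9, 87.7 and 82.3 CPM in siControl and at 126, 110 and 123 CPM in siOGT. The groups lay well apart, with a gap from 87.7 to 110 CPM. Over all genes tested, 12.1% had all siOGT libraries above all siControl libraries. The log2 ratios of RBPJ in pairs 1 to 3 were 0.54, 0.33 and 0.58. RBPJ had a log2FC of 0.48 (SE 0.068, 95% confidence interval 0.34 to 0.62, edgeR adjusted p-value 8.014e-05), a level 39.5% higher. The 10 other fits all called RBPJ, including the one without the block (edgeR adjusted p-value 0.0472). MAML2 (chromosome 11, 95976598 to 96343195, minus strand) was at 84.0, 70.0 and 72.2 CPM in siControl and 85.7, 68.2 and 66.1 CPM in siOGT. Its log2FC was -0.04 (95% confidence interval -0.18 to 0.09, edgeR adjusted p-value 0.673).

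**Figure D2:**
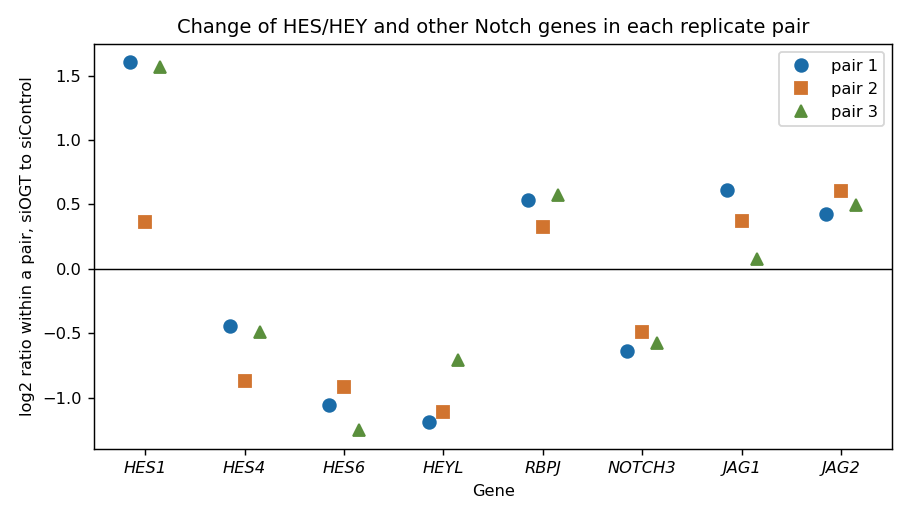
Log2 ratio of siOGT to siControl within each of the 3 replicate pairs (vertical axis) for the called Notch genes and for HES6 and HEYL. HES1, RBPJ, JAG1 and JAG2 lie above 0 in all 3 pairs and HES4, HES6, HEYL and NOTCH3 below 0, and for HES1 pair 2 (0.37) lies far below pairs 1 and 3 (1.60 and 1.57).

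The HES/HEY genes did not move together. HES1 (chromosome 3, 194136150 to 194138730, plus strand), which has 2 matches to TGGGAA on the gene strand in the window shown above, was at 5.27, 2.75 and 2.94 CPM in siControl and at 16.2, 3.57 and 8.84 CPM in siOGT, that is, at 141, 70 and 82 against 437, 96 and 237 counts. It rose strongly in pairs 1 and 3 and little in pair 2, in which siOGT 2 lay below siControl 1, so that the groups overlapped. This gave a log2FC of 1.29 (SE 0.19, 95% confidence interval 0.89 to 1.68, edgeR adjusted p-value 9.173e-05), or 2.44-fold. The interval draws on the spread of other genes as well, and the log2 ratio of pair 2 (0.37) lay below it. The log2FC ranged from 1.04 without replicate 1 to 1.60 without replicate 2 and was called in both. The call held with DESeq2 (log2FC 1.23, adjusted p-value 5.038e-05) and was lost without the block with edgeR (0.173) and DESeq2 (0.211).

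HES4 (chromosome 1, 998962 to 1000172, minus strand), a HES gene with no mouse counterpart, moved the other way. It was at 10.4, 10.1 and 8.56 CPM in siControl and at 7.63, 5.46 and 6.08 CPM in siOGT, from 147 to 278 counts per library. All siOGT libraries lay below all siControl libraries, as was so for 11.8% of all genes tested. HES4 had a log2FC of -0.60 (SE 0.13, 95% confidence interval -0.87 to -0.34, edgeR adjusted p-value 0.00197) and the level fell by 34.1%, with log2 ratios of -0.44, -0.87 and -0.49 in pairs 1 to 3. Without the block the adjusted p-value was 0.124 with edgeR and 0.0452 with DESeq2.

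HEY1 (chromosome 8, 79762371 to 79767857, minus strand) was almost undetected. It had 0, 0 and 2 counts in siControl and 2, 3 and 3 counts in siOGT, which with 10 counts in all just met the filter. The siControl library 3 and the siOGT library 1 held 2 counts each. The ratio of the summed counts was 4.03 with an exact 95% interval of 0.804 to 38.9 that covers counting error only, and no change was detectable at this depth (edgeR adjusted p-value 0.359).

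The rest of the family was read from a list of HES and HEY genes. HES6 and HEYL were called, both lower. HES6, which antagonises HES1 in other systems, was at 12.0, 14.8 and 11.5 CPM in siControl and 5.74, 7.80 and 4.77 CPM in siOGT (log2FC -1.08, SE 0.12, edgeR adjusted p-value 5.612e-06), and it kept its call without the block (0.0472). HEYL, a HEY family repressor expressed in vascular and other mural cells, was at 6.92, 8.45 and 6.13 CPM in siControl and 3.00, 3.86 and 3.73 CPM in siOGT (log2FC -1.02, SE 0.15, edgeR adjusted p-value 1.212e-04), with an adjusted p-value of 0.0502 without the block. For both genes the highest siOGT library was below the lowest siControl library, as for 11.8% of all genes tested. HES7 and HEY2 were not called, HES2 and HES5 had fewer than 10 counts in all, and HES3 and HELT were not among the symbols. HEY2 had 0 counts in all siControl libraries and 2, 1 and 8 in siOGT. HES1, HES4 and HEYL carry the longer RBPJ motif and HES6 carries neither form in its window. The longer form was also in the windows of HEY2 and HES5. Of the 11 HES and HEY genes listed, 10 were searched (all but HEY1), of which 7 held TGGGAA and 5 held GTGGGAA. The 7 include HES3 and HELT. These counts are per gene and cannot be set against the shares per window given above. Outside the family, TGGGAA was also in windows of pathway genes that were not called, such as FURIN and CTBP1. Genes with the motif were thus found among those that rose, those that fell and those not called. Of the summed level of 9 HES/HEY genes per kilobase, HES4 made up 45.3% ± 1.19 in siControl and 38.7% ± 2.26 in siOGT (SD, n = 3 each), HES6 34.3% ± 3.45 and 22.0% ± 9.21, HEYL 9.18% and 6.12% on average, and HES1 9.25% ± 3.12 and 29.1% ± 13.9. HES1 made up 41.6%, 14.1% and 31.7% in siOGT 1 to 3 against 12.7%, 6.52% and 8.57% in siControl 1 to 3.

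**Figure D3:**
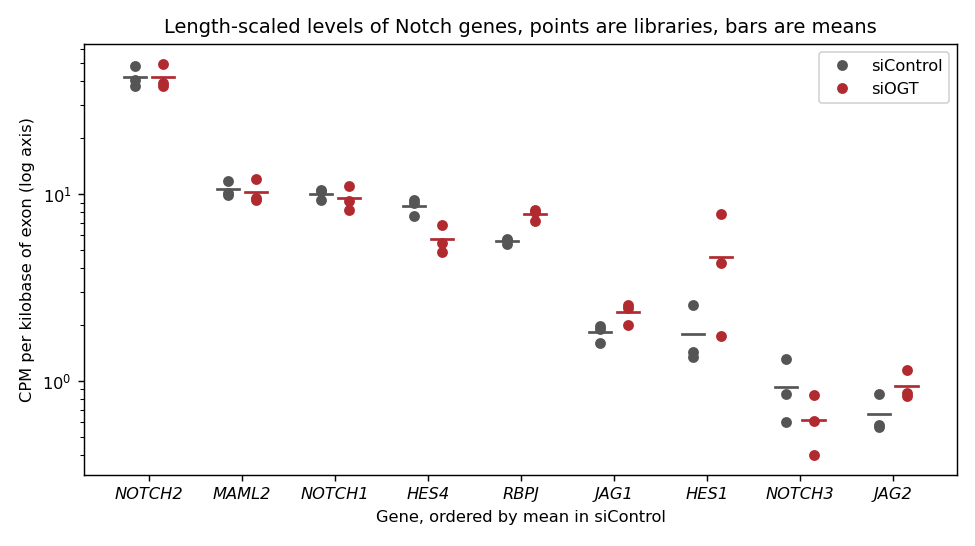
CPM per kilobase of exon (log axis) for 9 Notch genes in the 3 siControl and 3 siOGT libraries, ordered by the siControl mean (points are libraries, bars are means, and HEY1, with counts of 0, is left out). NOTCH2 stands above all others at 42.3 CPM per kilobase in siControl, and HES1 ranges from 1.73 to 7.86 CPM per kilobase in siOGT.

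Levels of different genes were compared per kilobase of exon. In siControl the order was NOTCH2 (42.3 ± 5.59), MAML2 (10.6 ± 1.05), NOTCH1 (10.1 ± 0.679), HES4 (8.65 ± 0.873), RBPJ (5.59 ± 0.193), JAG1 (1.83 ± 0.198), HES1 (1.77 ± 0.683), NOTCH3 (0.923 ± 0.360), JAG2 (0.665 ± 0.159) and HEY1 (0.00435 CPM per kilobase, SD 0.00754, n = 3 each). MAML2, NOTCH1 and HES4 overlapped as neighbours, as did JAG1 with HES1 and NOTCH3 with JAG2. Within siControl libraries, NOTCH1 stood above HES4 and NOTCH3 above JAG2 in 3 of 3, the latter by little in replicate 3 (0.602 against 0.583). MAML2 with NOTCH1 and JAG1 with HES1 changed places between libraries, so that their order is not resolved. In siOGT the means of RBPJ and HES4 were 7.81 ± 0.555 and 5.71 ± 0.997 CPM per kilobase. By exonic length RBPJ stood above HES4 in 3 of 3 siOGT libraries and below it in 3 of 3 siControl libraries. The place of RBPJ depends on its length, since 15311 exonic bases are annotated but its longest transcript has 5761. With the longest transcript RBPJ was at 14.9 CPM per kilobase in siControl, NOTCH1 at 12.8, HES4 at 9.30, JAG1 at 2.86 and NOTCH2 at 62.0. By this length the mean of RBPJ stood above that of HES4 in siControl too, so their change of order rests on the exonic length.

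The other genes of the pathway were taken from lists made by role. Of 73 listed, 71 were in the files and 67 were tested, of which 10 were called higher and 11 lower, or 31.3% against 25.4% of all genes. Their median log2FC was 0.01, as over all genes. Without replicate 1 the number of other pathway genes called moved from 21 to 10, and without the replicate block only HES6 was called with edgeR.

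**Figure D4:**
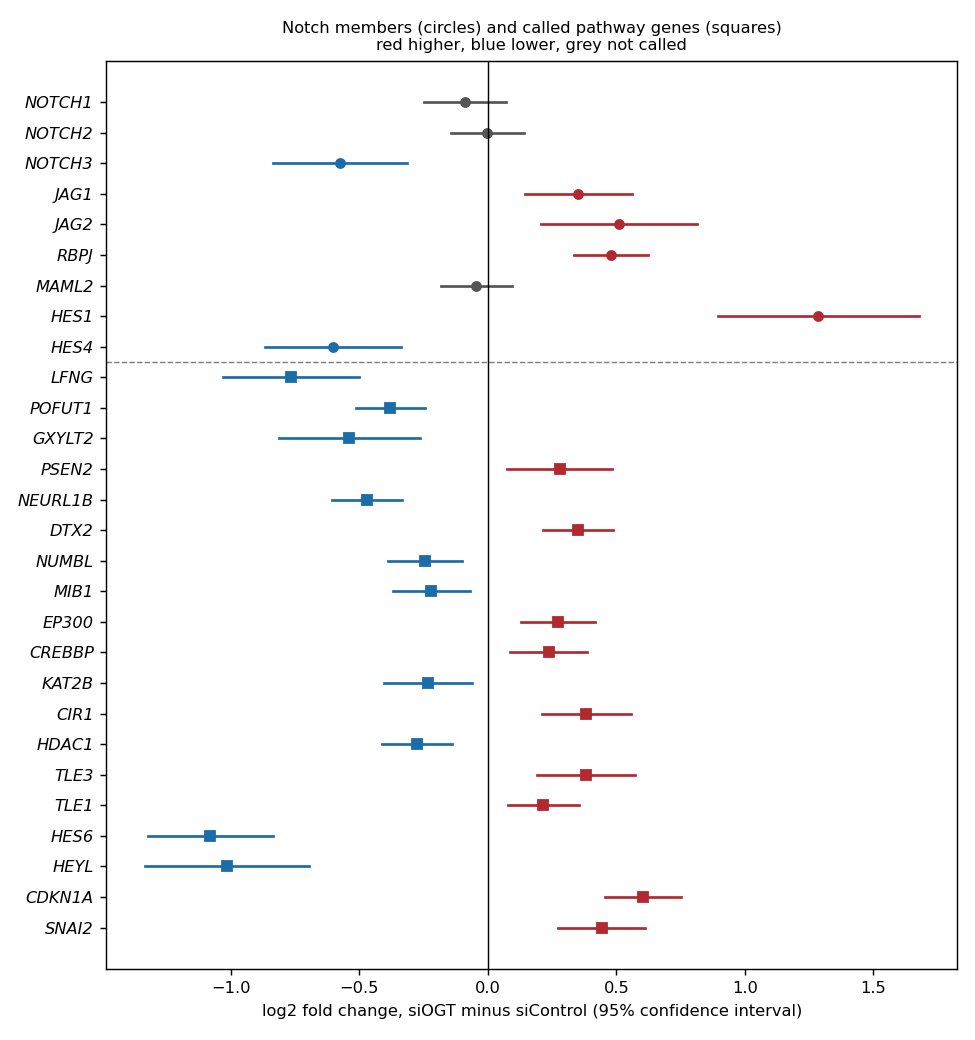
Log2FC, siOGT minus siControl, with its 95% confidence interval (horizontal axis) for 9 Notch genes (circles, HEY1 left out) and for 19 other pathway genes named by the rule of at most 4 called genes per list (squares). HES1 has the highest value (1.29) and HES6 and HEYL the lowest (-1.08 and -1.02).

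Of 9 glycosyltransferases that modify the extracellular domain of Notch, 3 fell and 0 rose (33.3% called, against 25.4% of all genes tested). LFNG (lunatic fringe), which extends O-fucose and tunes the response to Delta and Jagged ligands, was at 7.07, 11.3 and 10.6 CPM in siControl and 4.85, 6.61 and 5.45 CPM in siOGT (log2FC -0.77, SE 0.13, edgeR adjusted p-value 2.991e-04). POFUT1, which adds the O-fucose, was at 162, 145 and 154 CPM in siControl and 127, 114 and 113 CPM in siOGT (log2FC -0.38, SE 0.064, edgeR adjusted p-value 3.708e-04). Both genes were lower in all siOGT libraries than in any siControl library, as was so for 11.8% of all genes tested. GXYLT2, a xylosyltransferase acting on O-glucose, fell by 0.54 on the log2 scale (edgeR adjusted p-value 0.00576), mostly in pair 1 (-0.98), and lost its call without replicate 1 (0.101). EOGT, which attaches N-acetylglucosamine to Notch in the secretory pathway and is a different enzyme from OGT, had a log2FC of 0.18 and was not called (edgeR adjusted p-value 0.0748).

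Of 9 genes for the proteases that cut Notch, PSEN2, a presenilin of gamma-secretase, was called (log2FC 0.28, edgeR adjusted p-value 0.0432), or 11.1% of the list against 25.4% of all genes. An unnamed gene on the same strand covers 38.7% of its exonic bases, and its call was lost with DESeq2 (0.186), without replicate 1 (0.106) and without replicate 2 (0.331). ADAM10, ADAM17 and NCSTN were not called, with log2FC values between -0.06 and 0.15. Of 12 genes for endocytosis and turnover, 1 rose and 4 fell (41.7% called, against 25.4% of all genes). NEURL1B, a ubiquitin ligase acting on ligands, fell from 131 ± 14.2 to 94.7 ± 15.9 CPM (SD, n = 3 each, log2FC -0.47, edgeR adjusted p-value 6.217e-05). MIB1, another ligase for ligands, fell by 0.22 (0.0305), and NUMBL, a paralogue of the Notch inhibitor NUMB, fell by 0.24 on the log2 scale (0.0142). The call of MIB1 was lost with DESeq2 with the block (0.103), with library totals alone (0.0510) and when any 1 replicate was left out (edgeR adjusted p-values 0.0725 to 0.105), and that of NUMBL without replicate 1 (0.0862) or 2 (0.155). DTX2, a Deltex ligase, rose by 0.35 (edgeR adjusted p-value 7.883e-04).

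Of 7 coactivators of the RBPJ complex other than MAML2, 2 rose and 1 fell (42.9% called, against 25.4% of all genes). EP300 and CREBBP, the histone acetyltransferases that the complex recruits, had log2FC values of 0.27 and 0.24 (edgeR adjusted p-values 0.00705 and 0.0207), and KAT2B had -0.23 (0.0422). All 3 calls were lost without replicate 1, that of CREBBP also without replicate 2 (0.0968) and that of KAT2B without replicate 3 (0.199), with library totals alone (0.0669) and with DESeq2 (0.136). MAML1 and MAML3 were not called, with log2FC values of 0.12 and -0.31. Of 13 corepressors 4 rose and 1 fell (38.5% called, against 25.4%). CIR1, which binds RBPJ, rose by 0.38 (edgeR adjusted p-value 0.00255), TLE3 and TLE1, Groucho-type partners of HES proteins, by 0.38 and 0.22 (0.00511 and 0.0213), whereas HDAC1 fell by 0.28 on the log2 scale (0.00450). Without replicate 1 the calls of TLE3 (log2FC 0.23, edgeR adjusted p-value 0.169), TLE1 (0.189) and HDAC1 (0.0968) were lost, and TLE1 was also lost without replicate 2 (0.124). NCOR1 and SPEN were not called, with log2FC values of -0.12 and -0.0035.

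Of 7 other reported targets that were tested, 2 rose and 0 fell (28.6% called, near the 25.4% of all genes). CDKN1A, the cell cycle inhibitor p21, which also responds to p53, was at 44.7, 61.6 and 47.8 CPM in siControl and 70.9, 85.3 and 76.4 CPM in siOGT (log2FC 0.60, SE 0.070, edgeR adjusted p-value 1.165e-05). SNAI2 had a log2FC of 0.44 (edgeR adjusted p-value 7.016e-04). NRARP, a feedback inhibitor and a direct target in many tissues, had only 4 to 26 counts per library and a log2FC of 0.03 (95% confidence interval -1.11 to 1.17). CCND1, MYC, SOX9 and SNAI1 were not called.

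**Figure D5:**
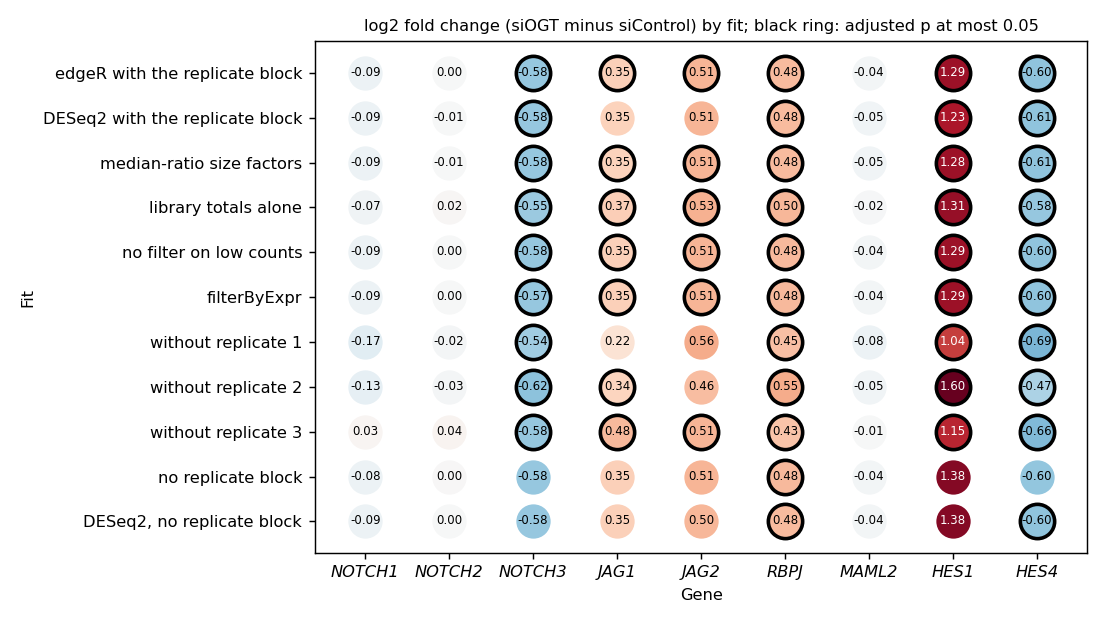
Log2FC of 9 Notch genes (columns) in 11 fits (rows), printed in each circle and coloured from blue (lower in siOGT) to red (higher). A black ring marks an adjusted p-value of at most 0.05: RBPJ has a ring in all 11 rows, HES1 and NOTCH3 lose it without the replicate block, and NOTCH1, NOTCH2 and MAML2 have none.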

How the data were processed

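Messenger RNA of 3 siControl and 3 siOGT libraries was sequenced paired-end after oligo-dT enrichment. Per the study's methods and the submitters' processing notes, the authors aligned reads to hg38 with Bowtie2 2.3.5.1 and counted them per gene, with strand, with RSEM 1.3.1. The values deposited per library are expected counts, estimates that divide reads matching several genes, with no normalization. The authors' table of their own DESeq2 1.36.0 comparison (mean counts, fold changes and p-values) was not used.

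Expected counts were rounded, and 2054 genes with a total below 10, as in the study, were removed. Libraries were scaled with TMM, and the quasi-likelihood F test of edgeR 4.0.16 (R 4.3.3) was run two-sided on 14853 genes, blocked on replicate number as in the study's paired design. P-values were adjusted by Benjamini-Hochberg over all genes tested, and genes at 0.05 or below were called. Log2 ratios within pairs used a prior count of 2. Confidence intervals were derived from the F statistic. Its spread per gene is moderated toward that of other genes (median prior degrees of freedom 15.5). The intervals can therefore be narrower than the spread between pairs, as for HES1 and JAG1. Alternatives were DESeq2 1.42.0, no block, other scalings and filters, and leaving out each pair. Deviations from group means over 12373 genes correlated by 0.69, 0.53 and 0.33 between same-numbered libraries, and the study's methods pair them. Positions and lengths are from GENCODE 44, sequences from RefSeq. Scripts were tested on simulated data. The Notch genes and pathway lists were chosen with earlier results of these data known. In the text all 10 Notch genes are named, with at most 4 called genes per pathway list by adjusted p-value. Other genes were named after their values were seen. Some listed pathway genes are not reported here by name.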

Additional observations from a re-analysis of the deposited data

How the results depend on the processing

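With median-ratio size factors, library totals alone, no filter on low counts or filterByExpr, the 6 Notch genes called stayed called in the same direction. Library totals alone gave 20 other pathway genes called (12 higher, 8 lower) in place of 21 (10 higher, 11 lower). Pairing changed the calls most. When the replicate block was dropped, edgeR calls numbered 130 genes (71 higher, 59 lower), 1 Notch gene (1 higher, 0 lower) and 1 other pathway gene (0 higher, 1 lower), and DESeq2 without the block called 849 (388 higher, 461 lower), 2 (1 higher, 1 lower) and 6 (1 higher, 5 lower). DESeq2 with the block called 2415 genes (1117 higher) and 4 Notch genes (2 higher), and the cause of the difference between tools was not tested. With any 1 pair removed, calls ran from 1803 to 3439 genes called (858 to 1652 higher, 945 to 1787 lower), from 4 to 6 Notch genes (2 to 4 higher, 2 to 2 lower) and from 10 to 19 other pathway genes (4 to 11 higher, 6 to 9 lower), each lowest without replicate 1. Of the genes not called, NOTCH1 ranged from -0.17 to 0.026 when a pair was left out, and NOTCH2 from -0.034 to 0.041, with 3.139e-04 without the block and 0.020 with library totals. Counts below about 100 per library, as for the Delta ligands, NOTCH4, NRARP and HEY1, limit what could be detected. Some called genes also had such libraries, such as HES1, JAG2 and HEYL, with lowest counts of 70, 92 and 81.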
